A study of Mus musculus with 48 samples.

Results

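The 4 h between ZT8 and ZT12 were examined in the livers of 8 control mice, 4 killed at each time, out of 48 livers in the series. The ZT12 mice were numbers 17, 19, 22 and 23, and the ZT8 mice were numbers 11, 12, 13 and 16. All were male C57BL/6 mice of 4 to 6 months with floxed Bmal1 alleles and no Cre, called WT in the labels. A second set of 8 mice, 4 at ZT12 and 4 at ZT8, is used beside them and is called KO: Bmal1f/f-EsrCre littermates, in which tamoxifen activates a Cre present throughout the body. Both genotypes were gavaged with 5 mg of tamoxifen on each of 5 days, kept 7 more days, moved into constant darkness for 36 h, and killed in the dark. The WT mice therefore carry the floxed alleles and the tamoxifen but no Cre, so an effect of Cre itself is part of every WT against KO difference. Cage letters in the labels differ between the times. Cages of the ZT12 mice begin with B and those of the ZT8 mice begin with A. WT mouse 19 and KO mouse 20, both of ZT12, lived alone and have no cage letter. Time of day and cage set cannot be told apart in any difference given here. The ZT8 mice 11 and 12 shared a cage, and body weight was 32.2 ± 1.5 g at ZT12 and 30 ± 1.41 g at ZT8 (SD, n = 4 each; exact two-sided permutation p = 0.171, and 0.0286 is the smallest p this design can give).

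In mammalian cells the clock is a transcriptional loop. BMAL1 (gene symbol Arntl) and CLOCK bind E-box DNA and switch on the Per and Cry genes, whose proteins block them; the receptors REV-ERBα and REV-ERBβ (Nr1d1 and Nr1d2), also E-box targets, repress Arntl. In liver this loop meets signals from feeding, glucocorticoids and body temperature, and ZT12 is the hour at which lights had gone off in the earlier light-dark cycle, when mice become active and begin to eat. The comparison asks which liver genes were turned on or off across that boundary.

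Poly-A RNA was counted over whole genes, with 33857626 to 33981437 counts per library in the 8 WT livers, a spread of 0.365%. Levels are given as CPM, in which counts are scaled to the library total multiplied by edgeR's TMM factor for that library. The factors of the 8 WT livers came from the fit of 24 WT libraries and ran from 0.925 (mouse 16) to 1.02 (mouse 13). Those of the KO livers came from the fit of all 48 libraries. CPM compare 1 gene between mice and are not corrected for gene length. Between 17842 and 18365 genes had at least 1 count. Of 8 hepatocyte markers tested, none was called between the times, and their summed level was 32000 to 40300 CPM at ZT12 and 34400 to 39800 CPM at ZT8. Markers of Kupffer cells, neutrophils, T and NK cells, B cells, stellate cells, bile duct cells and red cells gave no call either. The calls among markers of other cells were Gpr182 of endothelial cells (log2 fold change 0.43), Plin4 of adipocytes (1.45) and Cela2a of pancreas (-1.69), each 1 member of its list. Summed endothelial markers were 541 to 655 CPM at ZT12 and 512 to 568 CPM at ZT8. Summed adipocyte markers were 826 to 1560 CPM at ZT12 and 838 to 1520 CPM at ZT8, summed pancreas markers were 15.7 to 31.0 CPM at ZT12 and 30.5 to 44.8 CPM at ZT8, and 6 pancreas markers were at 0 in all 8 livers. In whole liver a smaller number of cells of a type and less RNA per cell cannot be told apart.

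Of 14577 genes tested, 946 were higher at ZT12 (6.49%) and 970 were lower (6.65%) at an adjusted p under 0.05, and such genes are named called. The median log2 fold change was 0.52 among the higher and -0.48 among the lower, against 0.00035 over all genes tested. Most calls were thus small: 155 genes were called and at least 2-fold higher (1.06% of those tested) and 107 at least 2-fold lower (0.734%). The 4 ZT12 mice did not overlap the 4 ZT8 mice for 2605 genes (17.9%), of which 1618 were called. Without ZT8 mouse 11 the higher genes numbered 576, and without ZT8 mouse 12 they numbered 551.

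A gene was taken as switched if it was called, changed by at least 4-fold and averaged at least 1 CPM in its higher group. By this rule 15 genes were switched on (0.103% of genes tested) and 13 were switched off (0.0892%), and the 4 and 4 mice did not overlap for 20 of these 28. The named genes switched on store fuel (Ppp1r3b, Thrsp, Pnpla3), fold proteins (Hspa1a, Hspa1b), carry lipid into cells (Mfsd2a) or run the clock (Arntl), and the others named are Fam107a, Nipal1 and Xlr4a. Those switched off were the clock repressors Nr1d1 and Bhlhe41, the signalling genes Rgs16, Trib3 and Il1rn, the matrix gene Spon2, the transcription factor gene Rfx4, and Hmmr, Kif2c, Ccnb1, Cdkn3 and Cdc20, which act in mitosis. The other 4 of the 28 were predicted genes or pseudogenes. These 4 and Hmmr, Kif2c, Cdkn3, Nipal1, Xlr4a and Prrg4 are named because of their values and not by the rule for named genes. Without ZT12 mouse 23 the genes switched off numbered 7, without ZT8 mouse 12 they numbered 5, and without ZT8 mouse 16 they numbered 20. Without each of the 8 mice in turn, 12 to 20 genes were switched on.

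Pnpla3 (ENSMUSG00000041653, chromosome 15, 83998246 to 84019942 in mm9) is a lipid droplet protein that acts on triglycerides. Of the 28 switched genes it alone crossed 1 CPM in all mice. It had 2.73, 1.52, 1.54 and 4.71 CPM in the ZT12 mice, against 0.387, 0.242, 0.376 and 0.127 CPM in the ZT8 mice. Every ZT12 mouse was above 1 CPM and every ZT8 mouse below it (log2 fold change 3.19 ± 0.49 SE, adjusted p = 0.000389). None of the 28 crossed 1 CPM in all mice in the other direction. The remaining genes tested were not searched for such a crossing.

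Ppp1r3b (ENSMUSG00000046794, chromosome 8, 36438795 to 36451178), which brings protein phosphatase 1 to glycogen and promotes glycogen synthesis, had 546, 659.6, 793 and 578 CPM in the ZT12 mice, against 95.7, 83.1, 83.1 and 90.8 CPM in the ZT8 mice. The lowest ZT12 mouse stood far above the highest ZT8 mouse, and the mean was 7.3 times that of ZT8 (log2 fold change 2.87 ± 0.34 SE, adjusted p = 4e-05). Thrsp (ENSMUSG00000035686, chromosome 7, 104561448 to 104566240), a promoter of fatty acid synthesis, had 1225, 1885, 1932 and 1095 CPM in the ZT12 mice, against 399.9, 396, 238 and 363 CPM in the ZT8 mice (log2 fold change 2.13 ± 0.46 SE, adjusted p = 0.00391). The groups of Thrsp were fully separate. Mfsd2a, a transporter of lysophospholipids, had 51.7, 59.2, 76.3 and 87.4 CPM in the ZT12 mice, against 17.7, 4.15, 10.5 and 32.2 CPM in the ZT8 mice (log2 fold change 2.09 ± 0.55 SE, adjusted p = 0.0139), again without overlap although the ZT8 mice were widely spread.

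Hspa1b (ENSMUSG00000090877, chromosome 17, 35093381 to 35096183), an inducible HSP70 chaperone, had 15.4, 21.9, 24.4 and 31.7 CPM in the ZT12 mice, against 2.47, 3.39, 3.44 and 2.8 CPM in the ZT8 mice (log2 fold change 2.95 ± 0.33 SE, adjusted p = 2.88e-05). Its neighbour Hspa1a had 0.551, 0.777, 1.57 and 1.84 CPM in the ZT12 mice, against 0.208, 0.0908, 0.173 and 0.127 CPM in the ZT8 mice (log2 fold change 2.94 ± 0.55 SE, adjusted p = 0.00138). Both genes kept their groups apart, but they are near-identical copies, so how reads were divided between them is uncertain. Fam107a, an actin-associated gene known to respond to glucocorticoids, had 3.16, 6.91, 10.8 and 6.07 CPM in the ZT12 mice, against 0.476, 1.03, 0.549 and 1.24 CPM in the ZT8 mice (log2 fold change 3.03 ± 0.58 SE, adjusted p = 0.00186), with all ZT12 mice above all ZT8 mice.

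A further pair of named genes switched on were uneven between mice. Nipal1, a magnesium transporter, had 5.6, 18, 2 and 29.2 CPM in the ZT12 mice, against 2.65, 4.75, 4.04 and 2.1 CPM in the ZT8 mice. Xlr4a, one of a family of similar X-linked genes whose reads may be shared, had 5.86, 0.149, 0.0923 and 1.48 CPM in the ZT12 mice, against 0.208, 0.303, 0.116 and 0.0637 CPM in the ZT8 mice. In both of them the groups overlapped: mouse 23 held the highest Nipal1 and mouse 17 the highest Xlr4a. The calls (adjusted p = 0.0485 for Nipal1 and 0.0209 for Xlr4a) were lost without those mice, and also without other single mice.

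Rgs16 (ENSMUSG00000026475, chromosome 1, 155587479 to 155592598), which shortens signalling by G protein-coupled receptors, had the largest fall among called genes of at least 5 CPM without overlap. It had 13.4, 5.68, 5.97 and 1.63 CPM in the ZT12 mice, against 59.9, 124, 32 and 62.7 CPM in the ZT8 mice (log2 fold change -3.38 ± 0.69 SE, adjusted p = 0.0028). Its ZT8 level itself ranged widely, though by that choice the lowest ZT8 mouse had to be above the highest ZT12 mouse. Trib3 (ENSMUSG00000032715, chromosome 2, 152163158 to 152169768), a pseudokinase induced by fasting and amino acid shortage, had 3.36, 3.38, 2.12 and 3.11 CPM in the ZT12 mice, against 18.3, 24.1, 15.1 and 12 CPM in the ZT8 mice (log2 fold change -2.54 ± 0.30 SE, adjusted p = 4.12e-05). Every ZT8 mouse had over 3 times the highest ZT12 value. Spon2, a secreted matrix protein, had 1.74, 1.28, 1.66 and 1.99 CPM in the ZT12 mice, against 5.65, 11.1, 7.11 and 5.48 CPM in the ZT8 mice (log2 fold change -2.13 ± 0.29 SE, adjusted p = 0.00015). Rfx4, a transcription factor gene of the RFX family, had 2.12, 1.91, 1.66 and 0.755 CPM in the ZT12 mice, against 6.93, 8.54, 6.65 and 5.32 CPM in the ZT8 mice (log2 fold change -2.08 ± 0.29 SE, adjusted p = 0.00021). Il1rn, the interleukin 1 receptor antagonist, had 4.73, 3.53, 1.66 and 3.17 CPM in the ZT12 mice, against 14.3, 15.4, 10.5 and 14.9 CPM in the ZT8 mice (log2 fold change -2.07 ± 0.46 SE, adjusted p = 0.00479). In each of these the ZT12 and ZT8 mice were separate, as the rule for the largest falls required.

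Among predicted genes, Gm6484 had 164, 203, 138 and 137 CPM in the ZT12 mice, against 12.2, 13.6, 19.1 and 11 CPM in the ZT8 mice (log2 fold change 3.52 ± 0.57 SE, adjusted p = 0.000532), the highest fold change of the 28. It is an abundant transcript with no overlap between the groups, and no function is given to it here. Gm15622 and the pseudogene Hist2h3c2-ps were also switched on, at 4.13 CPM against 1.01 CPM and at 1.3 CPM against 0.285 CPM, and Gm15611 was switched off, at 0.346 CPM against 1.54 CPM. The 4-fold limit cut through a continuous range. Just inside it stood Nipal1 (log2 fold change 2.01), Gm15622 (2.02), Bhlhe41 (-2.03) and Cdc20 (-2.03), and just outside stood Cdkn1a (1.99), Prrg4 (-1.99), Kbtbd8 (1.99) and Plk1 (-1.98).

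**Figure D1:**
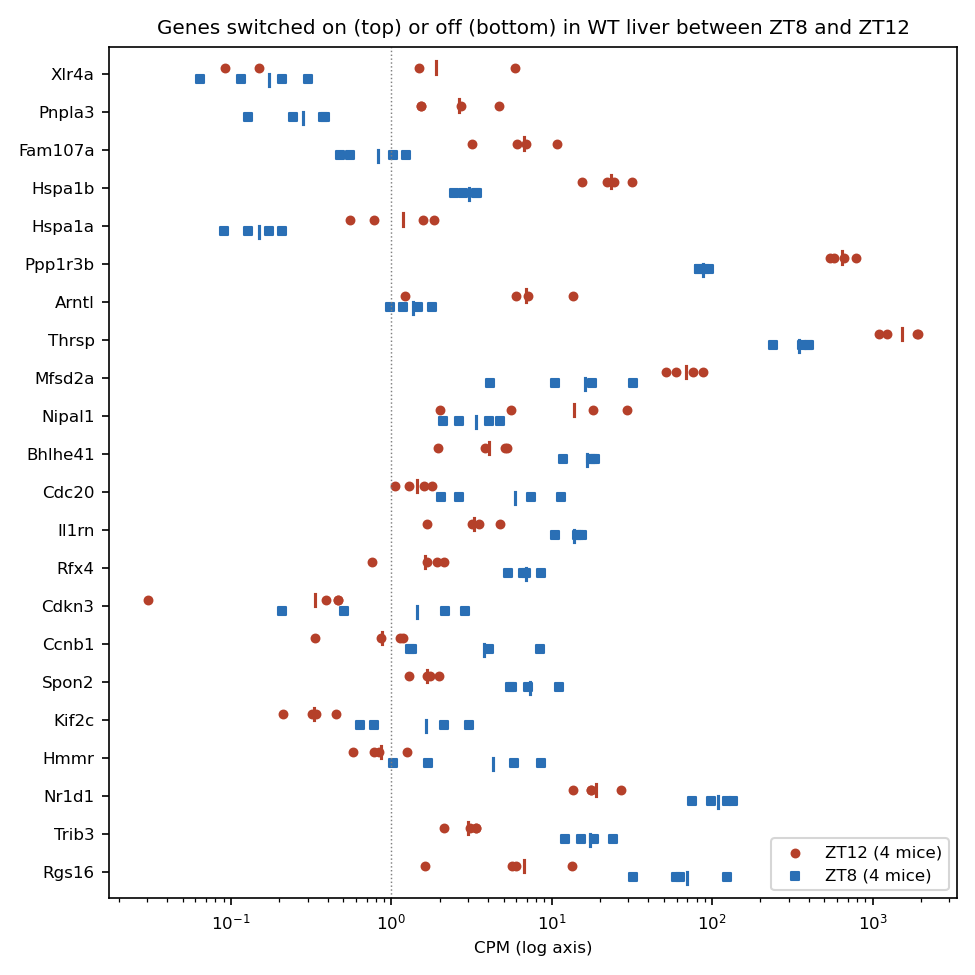
Level of each named switched gene in each WT liver, in CPM on a log axis. Red circles are the 4 ZT12 mice and blue squares below them the 4 ZT8 mice, with short vertical lines at the group means and a dotted line at 1 CPM; genes run from Xlr4a (log2 fold change 3.43) at the top to Rgs16 (-3.38) at the bottom, and the mice of Arntl, Nipal1, Xlr4a, Cdkn3 and Hmmr overlap.

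The clock genes moved in both directions over the 4 h, as the plot of the 6 times shows. In the activating arm 2 of 5 members were higher at ZT12, Arntl among them, and none was lower (median log2 fold change 0.44). Among 11 repressors Cry1 and Nfil3 were higher and Nr1d1, Nr1d2 and Bhlhe41 were lower (median -0.24). Of the 3 PAR bZIP factors, which drive output genes through D-box DNA, Dbp was lower.

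Arntl (ENSMUSG00000055116, chromosome 7, 120350979 to 120457636) had 1.22, 7.11, 6 and 13.5 CPM in the ZT12 mice, against 0.982, 1.79, 1.47 and 1.18 CPM in the ZT8 mice (log2 fold change 2.35 ± 0.49 SE, adjusted p = 0.0033). Mouse 17 stood inside the ZT8 range while the other ZT12 mice were several times above it, so the groups overlapped. The call was kept without each mouse in turn and was lost in limma with cage as a random block (adjusted p = 0.0901). The correlation within cages was -0.0162 there, and the WT step was not fitted in limma without cage. Clock averaged 49.7 ± 12 CPM at ZT12 and 36.6 ± 5.64 CPM at ZT8 (SD, n = 4 each), with an adjusted p of 0.0561. Npas2, a partner that can replace CLOCK, was under 0.2 CPM in every one of the 8 livers.

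Cry1 (ENSMUSG00000020038, chromosome 10, 84594447 to 84647799), the late repressor of the loop, had 21.3, 31.5, 27.9 and 45 CPM in the ZT12 mice, against 8.24, 8.9, 9.39 and 11.9 CPM in the ZT8 mice (log2 fold change 1.71 ± 0.34 SE, adjusted p = 0.00243). Nfil3, which competes with the PAR bZIP factors for D-boxes, had 19.9, 29.6, 28 and 34.3 CPM in the ZT12 mice, against 11.1, 11.9, 10.2 and 15.3 CPM in the ZT8 mice (log2 fold change 1.21 ± 0.20 SE, adjusted p = 0.000686). Both were separate between the times. Per2 had 78.3, 74.3, 75.8 and 75.5 CPM in the ZT12 mice, against 28.4, 27.4, 37.8 and 36 CPM in the ZT8 mice, a difference of 1.23 on the log2 scale, and was not called (adjusted p = 0.0586). Its 8 mice did not overlap. It was called with these 8 libraries alone, with all 48 libraries and in limma with cage as a random block.

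Nr1d1 (ENSMUSG00000020889, chromosome 11, 98629246 to 98636647) had 27.1, 17.5, 17.6 and 13.6 CPM in the ZT12 mice, against 98.8, 136, 124 and 75.3 CPM in the ZT8 mice (log2 fold change -2.51 ± 0.52 SE, adjusted p = 0.00309). The highest ZT12 mouse was well under the lowest ZT8 mouse, but the gene overlaps Thra on the other strand and the library kit does not record strand. Nr1d2, its relative, had 93.2, 71.7, 74.7 and 90.5 CPM in the ZT12 mice, against 162, 154, 149 and 155 CPM in the ZT8 mice (log2 fold change -0.91 ± 0.27 SE, adjusted p = 0.0284), and this call was lost without ZT12 mouse 19 or 22 and without ZT8 mouse 11 or 12 (adjusted p up to 0.0808 over the alternatives). Bhlhe41, the repressor DEC2, had 5.13, 5.29, 3.82 and 1.96 CPM in the ZT12 mice, against 17.6, 18.2, 18.7 and 11.8 CPM in the ZT8 mice (log2 fold change -2.03 ± 0.42 SE, adjusted p = 0.00323). Dbp had 75, 26, 38.5 and 14.8 CPM in the ZT12 mice, against 137, 149, 150.4 and 148 CPM in the ZT8 mice (log2 fold change -1.92 ± 0.47 SE, adjusted p = 0.00929), close among the ZT8 mice and spread among the ZT12 mice. It overlaps Sphk2, and its call was lost when all 48 libraries were fitted together (adjusted p = 0.1). The members with no call were Clock, Npas2, Rora, Per1, Per2, Per3, Cry2, Gm129, Bhlhe40, Tef and Hlf.

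Promoter windows are shown here because E-box genes moved in opposite directions: Cry1 rose, Bhlhe41 fell, and Gm129 (CHRONO, a repressor of BMAL1) gave no call. The windows are the 250 bases before the RefSeq start in GRCm38.p6, read 5′ to 3′ in the direction of the gene. Capitals mark the E-box CACGTG, which reads alike on both strands. The window of Cry1 is chr10:85185055-85185304, minus strand, that of Bhlhe41 is chr6:145865421-145865670, minus strand and that of Gm129 is chr3:95882229-95882478, minus strand.
Cry1: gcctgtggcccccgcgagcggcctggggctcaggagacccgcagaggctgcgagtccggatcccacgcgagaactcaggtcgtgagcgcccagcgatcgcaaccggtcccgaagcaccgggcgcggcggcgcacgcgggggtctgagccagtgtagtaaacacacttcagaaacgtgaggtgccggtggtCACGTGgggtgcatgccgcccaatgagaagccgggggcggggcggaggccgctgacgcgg
Bhlhe41: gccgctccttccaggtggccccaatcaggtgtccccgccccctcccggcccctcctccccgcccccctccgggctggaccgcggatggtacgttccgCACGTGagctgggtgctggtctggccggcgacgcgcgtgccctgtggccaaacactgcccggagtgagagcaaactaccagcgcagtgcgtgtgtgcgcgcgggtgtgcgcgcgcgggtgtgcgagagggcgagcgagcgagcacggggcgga
Gm129: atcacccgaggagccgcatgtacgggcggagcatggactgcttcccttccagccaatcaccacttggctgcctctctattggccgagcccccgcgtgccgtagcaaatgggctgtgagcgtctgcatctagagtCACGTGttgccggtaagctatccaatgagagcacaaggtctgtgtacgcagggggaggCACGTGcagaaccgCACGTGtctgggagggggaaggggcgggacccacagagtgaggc
The E-box lay 60 bases before the start in Cry1 and 153 bases before it in Bhlhe41, and Gm129 held copies at 116, 58 and 44 bases. An E-box was present in 5 of the 16 clock genes that matched the table (Per1, Cry1, Gm129, Bhlhe41 and Tef), and in 6.86% of all 27025 genes with a window. The D-box (TTATGTAA or TTACGTAA) was present in Per3 among the clock genes and in 1.1% of all genes. The letters say nothing of binding in these livers.

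For the genes switched on, 9 matched the promoter table and none held an E-box. Windows of a pair of them are shown because their letters match other response elements: Pnpla3 (chr15:84167566-84167815, plus strand) holds the cAMP element TGACGTCA, and Fam107a (chr14:8309780-8310029, minus strand) holds the glucocorticoid element GNACA and TGTNC, 3 bases apart, both in capitals.
Pnpla3: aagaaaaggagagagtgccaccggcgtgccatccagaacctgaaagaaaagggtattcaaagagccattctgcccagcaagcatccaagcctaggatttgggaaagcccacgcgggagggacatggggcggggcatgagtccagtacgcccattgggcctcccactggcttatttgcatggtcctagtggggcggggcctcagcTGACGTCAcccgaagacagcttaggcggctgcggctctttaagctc
Fam107a: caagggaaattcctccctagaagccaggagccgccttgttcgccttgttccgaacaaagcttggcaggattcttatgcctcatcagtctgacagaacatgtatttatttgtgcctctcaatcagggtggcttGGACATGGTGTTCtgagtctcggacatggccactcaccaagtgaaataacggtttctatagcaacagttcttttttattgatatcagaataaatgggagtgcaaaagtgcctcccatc
The match lay 46 bases before the start in Pnpla3 and 118 bases before it in Fam107a. The cAMP element was found in 1.77% of all genes and the glucocorticoid element in 0.44%, searched on both strands. Of 11 switched-off genes with a window, Bhlhe41 held the E-box and none held another of the motifs searched, which also included the RORE (AANT followed by AGGTCA or GGGTCA, in 0.418% of all genes), the heat shock element (GAA, TTC and GAA, 2 bases apart, 0.514%) and the sterol element (TCACCCCAC, 0.555%).

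**Figure D2:**
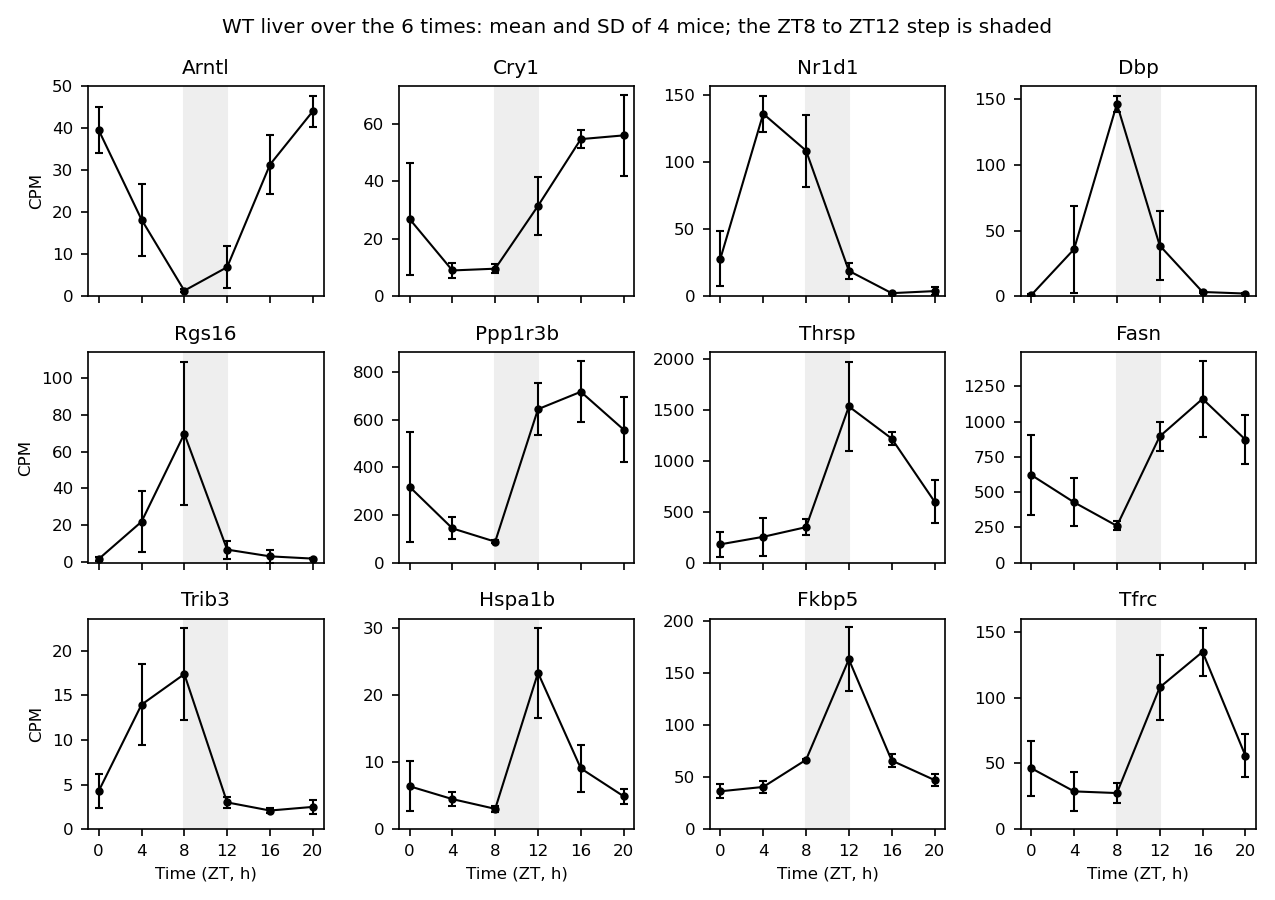
Mean CPM with SD of 4 WT mice at each of 6 times for 12 genes, with the ZT8 to ZT12 step shaded. Arntl, Cry1, Ppp1r3b, Thrsp, Fasn, Hspa1b, Fkbp5 and Tfrc are higher at ZT12 than at ZT8, and Nr1d1, Dbp, Rgs16 and Trib3 are lower.

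The step fell at different points of each gene's day; the 6 means of a gene are given in the order of the times, ZT0 first. Arntl averaged 39.6, 18.3, 1.35, 6.95, 31.4 and 44.1 CPM, so its ZT12 level was still near the bottom of its course. Nr1d1 averaged 28, 136, 108, 19, 2.38 and 3.91 CPM, and its ZT12 level lay below that of ZT8 and above those of ZT16 and ZT20. Hspa1b averaged 6.4, 4.48, 3.02, 23.4, 9.07 and 4.9 CPM and was highest at ZT12. Fkbp5 averaged 36.3, 40.4, 66.5, 163, 65.8 and 47.1 CPM and was likewise highest at ZT12. Rgs16 averaged 1.56, 21.9, 69.7, 6.68, 3.02 and 1.79 CPM, with its highest mean at ZT8. Such counts over the called genes are partly set by choosing genes that differ between the 2 times. Among the 946 genes higher at ZT12, 453 had their highest WT mean at ZT12 and 489 their lowest at ZT8. Among the 970 lower ones, 500 had their lowest mean at ZT12 and 488 their highest at ZT8. Over all 14577 genes the highest mean was at ZT12 for 2664 and the lowest at ZT8 for 2478. The lowest mean was at ZT12 for 2692 of them and the highest at ZT8 for 2412.

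Genes of fatty acid synthesis were higher at ZT12: 13 of 22 rose, 1 fell, and the median of the list was 0.50 on the log2 scale. For every gene list here, the shares over all genes tested were 6.49% higher and 6.65% lower. Fasn (ENSMUSG00000025153, chromosome 11, 120667254 to 120685492), the fatty acid synthase, had 965, 833, 999 and 787 CPM in the ZT12 mice, against 280.2, 296, 230.5 and 238 CPM in the ZT8 mice (log2 fold change 1.78 ± 0.28 SE, adjusted p = 0.000389), with no overlap. Srebf1, the transcription factor that drives the pathway under insulin, averaged 547 CPM at ZT12 and 231 CPM at ZT8 (log2 fold change 1.24, adjusted p = 0.00475). Acly, Acaca, Acacb, Pklr, Elovl6, Scd2, Agpat2, Fads1 and Fads2, which supply acetyl-CoA, build malonyl-CoA, or lengthen, desaturate and esterify fatty acids, rose by 0.27 to 1.01 on the log2 scale. Thrsp and Pnpla3, described above, complete the 13. Elovl5, an elongase of polyunsaturated fatty acids, fell (log2 fold change -0.42). Scd1, the most abundant desaturase, averaged 5182 CPM at ZT12 and 4824 CPM at ZT8 and was not called. The count of 13 became 8 without ZT8 mouse 13 and 8 with all 48 libraries.

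In sterol synthesis and uptake 5 of 23 members rose and none fell (median 0.35). Among them were Insig1, a brake on SREBP, and Srebf2, the sterol-sensing factor. Insig1 had 344, 576, 453 and 463 CPM in the ZT12 mice, against 279, 226, 201 and 299.7 CPM in the ZT8 mice (log2 fold change 0.87 ± 0.20 SE, adjusted p = 0.00682), without overlap. The count was 3 without ZT12 mouse 19 or 22 and without any 1 of the ZT8 mice. G0s2, an inhibitor of the lipase ATGL, had 74.1, 146, 106 and 84.2 CPM in the ZT12 mice, against 27.9, 19.2, 47.2 and 13 CPM in the ZT8 mice (log2 fold change 1.93 ± 0.52 SE, adjusted p = 0.0162), a call that was lost without ZT8 mouse 12 or 16. In fatty acid oxidation and PPARA targets 1 of 30 rose and 2 fell, beside 6.49% higher and 6.65% lower over all genes tested. Plin5, a lipid droplet coat protein of oxidative tissue, had 41.7, 49.4, 72.7 and 57.5 CPM in the ZT12 mice, against 27.4, 27.5, 30 and 27.9 CPM in the ZT8 mice (log2 fold change 0.97). Plin2, the general droplet coat protein of liver, had 261, 255, 343 and 221 CPM in the ZT12 mice, against 534, 407, 405 and 436 CPM in the ZT8 mice (log2 fold change -0.72). These coat proteins thus differed in opposite directions.

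In glycolysis and glycogen 3 of 19 members rose (among them Ppp1r3b and, by 0.25 on the log2 scale, Pfkl) and Phka2 fell by 0.30 on the log2 scale. The calls of Pfkl and Phka2 were each lost without any 1 of 6 of the 8 mice (adjusted p up to 0.131 and 0.119). In gluconeogenesis 1 of 14 rose, the tyrosine aminotransferase Tat, while Pck1 averaged 3015 CPM at ZT12 and 3978 CPM at ZT8 and G6pc averaged 293 CPM at ZT12 and 231 CPM at ZT8, neither called. Insulin and feeding signals had 3 of 20 members higher and 2 lower. Over all genes tested 6.49% were higher and 6.65% lower, and the small counts of these lists are not read as pathway changes. Ddit4, an inhibitor of mTORC1, had 12.5, 25.6, 17.7 and 26.2 CPM in the ZT12 mice, against 7.68, 7.51, 6.36 and 6.97 CPM in the ZT8 mice (log2 fold change 1.52 ± 0.24 SE, adjusted p = 0.000402). Irs1 and Irs2, the docking proteins of the insulin receptor, differed: Irs1 rose (log2 fold change 0.80, adjusted p = 0.0134) and Irs2 fell (log2 fold change -1.35, adjusted p = 0.0135). The call of Irs1 was lost without ZT12 mouse 23 and without ZT8 mouse 11. Nampt, the rate-limiting enzyme of NAD salvage, had 210, 244, 202 and 231 CPM in the ZT12 mice, against 136, 111, 136 and 179 CPM in the ZT8 mice (log2 fold change 0.65).

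Autophagy genes were lower at ZT12, with 8 of 17 members lower and none higher (median -0.24). Gabarapl1, an ATG8 protein of the autophagosome membrane, had 266, 226, 215 and 241 CPM in the ZT12 mice, against 394, 485, 414 and 489 CPM in the ZT8 mice (log2 fold change -0.91 ± 0.14 SE, adjusted p = 0.000446). Nbr1, a receptor that carries cargo to the autophagosome, had 198, 215, 215 and 214 CPM in the ZT12 mice, against 268, 273, 278 and 254 CPM in the ZT8 mice (log2 fold change -0.35). Each kept its groups apart, and Ulk1, Sqstm1, Atg5, Atg14, Wipi1 and Lamp2 were the other members that fell. In bile acid synthesis and transport 4 of 19 fell and none rose (median -0.19). Hsd3b7, an enzyme of the sterol nucleus, had 315, 248, 349 and 263 CPM in the ZT12 mice, against 492, 584, 602 and 520.1 CPM in the ZT8 mice (log2 fold change -0.90 ± 0.13 SE, adjusted p = 0.000241). Amacr, a racemase acting on the side chain, and the canalicular exporters Abcb11 (bile salts) and Abcb4 (phospholipid) fell by 0.46, 0.56 and 0.53 on the log2 scale. Cyp7a1, the rate-limiting enzyme, averaged 239.7 CPM at ZT12 and 169 CPM at ZT8 and was not called.

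Heat shock genes and chaperonins rose in 12 of 23 cases and none fell (median 0.46), and the count stayed between 11 and 13 under every alternative run. Hsph1, an HSP110 nucleotide exchange factor, had 91, 114, 95.8 and 114 CPM in the ZT12 mice, against 24.6, 30.7, 31.3 and 26.1 CPM in the ZT8 mice (log2 fold change 1.88 ± 0.31 SE, adjusted p = 0.000619). Hsp90aa1, the inducible HSP90, had 188, 296, 223 and 273 CPM in the ZT12 mice, against 86.3, 108, 95.5 and 91.7 CPM in the ZT8 mice (log2 fold change 1.36 ± 0.23 SE, adjusted p = 0.00063). Both were separate between the times. Hspa8, the constitutive HSC70, averaged 1722 CPM at ZT12 and 753 CPM at ZT8 (log2 fold change 1.19), and Bag3, its cochaperone, averaged 58.2 CPM at ZT12 and 25.6 CPM at ZT8 (log2 fold change 1.18). Dnajb1, Dnaja1, Stip1, Chordc1, Ahsa1 and Fkbp4 complete the list of those that rose. Hsf1, the factor that activates these genes, averaged 15 CPM at ZT12 and 14.2 CPM at ZT8 and was not called. Hspd1, the mitochondrial chaperonin, averaged 645 CPM at ZT12 and 592 CPM at ZT8 and was not called.

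In the list of cold-inducible RNA-binding genes 3 of 6 were lower and 1 was higher, and the median was near 0 (-0.06). Cirbp, a protein induced by mild cooling, had 16.8, 17.9, 15.7 and 14.2 CPM in the ZT12 mice, against 33.9, 25.6, 25.5 and 35.2 CPM in the ZT8 mice (log2 fold change -0.90 ± 0.21 SE, adjusted p = 0.00759), and the groups were separate. Srsf5 and Hnrpdl also fell and Srsf3 rose, while Rbm3, the other classic cold-induced gene of the list, averaged 73 CPM at ZT12 and 59.1 CPM at ZT8 and was not called. Of the unfolded protein response 7 of 23 rose and none fell (median 0.39). Hspa5, the chaperone BiP of the endoplasmic reticulum, had 1304, 1414, 1317 and 1249 CPM in the ZT12 mice, against 774, 662, 759 and 737 CPM in the ZT8 mice (log2 fold change 0.85 ± 0.22 SE, adjusted p = 0.014). Creld2, Manf, Hyou1, Ddit3, Edem1 and Atf4 were the others, and the count was 4 without ZT8 mouse 11, 3 without ZT8 mouse 12 and 12 with these 8 libraries alone.

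Ribosome biogenesis genes rose in 13 of 24 cases and 1 fell (median 0.43), whereas none of 35 cytosolic ribosomal proteins was called (median 0.11). Rrp12, a factor of ribosomal RNA processing and export, had 21.8, 26.9, 19.1 and 18.5 CPM in the ZT12 mice, against 7.5, 6.45, 11.8 and 7.2 CPM in the ZT8 mice (log2 fold change 1.38 ± 0.25 SE, adjusted p = 0.00106). Nop16, a nucleolar protein, had 33.5, 38.3, 36.5 and 35.5 CPM in the ZT12 mice, against 23.3, 26.9, 22.6 and 25.8 CPM in the ZT8 mice (log2 fold change 0.55). Neither overlapped. Nop56, Nop58, Nolc1, Nop2, Bop1, Polr1a, Polr1b, Polr1e, Nop14, Tsr1 and Mybbp1a also rose, and Ubtf, which opens ribosomal DNA, fell (log2 fold change -0.27). The count was 7 without ZT12 mouse 19. Odc1, the rate-limiting enzyme of polyamine synthesis, had 111, 145, 142 and 135 CPM in the ZT12 mice, against 56.4, 59.8, 76.7 and 73.8 CPM in the ZT8 mice (log2 fold change 1 ± 0.15 SE, adjusted p = 0.00037). Tfrc, the transferrin receptor that brings iron into cells, had 100.1, 144, 101 and 87 CPM in the ZT12 mice, against 25.8, 19.2, 37.6 and 27.1 CPM in the ZT8 mice (log2 fold change 1.98 ± 0.32 SE, adjusted p = 0.000551).

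Of 19 glucocorticoid targets 9 rose and 1 fell (median 0.34). The count of 9 became 6 without ZT8 mouse 11 and 7 with all 48 libraries. Fkbp5 (ENSMUSG00000024222, chromosome 17, 28536040 to 28654469), a cochaperone of the receptor, had 125, 192, 184 and 152 CPM in the ZT12 mice, against 64.8, 66.8, 67.2 and 67 CPM in the ZT8 mice (log2 fold change 1.29 ± 0.14 SE, adjusted p = 1.75e-05). The ZT8 mice lay within a narrow band that every ZT12 mouse exceeded. Tsc22d3, the anti-inflammatory gene GILZ, had 131, 129.6, 211 and 172 CPM in the ZT12 mice, against 56.6, 53.5, 48 and 70.8 CPM in the ZT8 mice (log2 fold change 1.49 ± 0.23 SE, adjusted p = 0.00035), also separate. Dusp1, Zbtb16, Cdkn1a, Tat, Pik3r1, Fam107a and Gadd45b were the others that rose. Klf9, a target of the same receptor and of the clock, went against them, with 61.6, 60, 74.4 and 65.7 CPM in the ZT12 mice, against 134, 143, 112 and 166 CPM in the ZT8 mice (log2 fold change -1.08 ± 0.14 SE, adjusted p = 7.36e-05). Of 19 immediate early genes 5 rose (Jun, Jund, Fosl2, Ier5 and Atf3) and Myc fell. Jun had 27.2, 25.9, 21.8 and 25.9 CPM in the ZT12 mice, against 8.36, 11.2, 10.2 and 10.3 CPM in the ZT8 mice (log2 fold change 1.33 ± 0.26 SE, adjusted p = 0.00205). Fos averaged 2.37 CPM at ZT12 and 1.6 CPM at ZT8 and Egr1 averaged 7.78 CPM at ZT12 and 9.88 CPM at ZT8, and neither was called. Myc averaged 6.88 CPM at ZT12 and 20.9 CPM at ZT8 (log2 fold change -1.60, adjusted p = 0.0449), with overlapping mice.

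**Figure D3:**
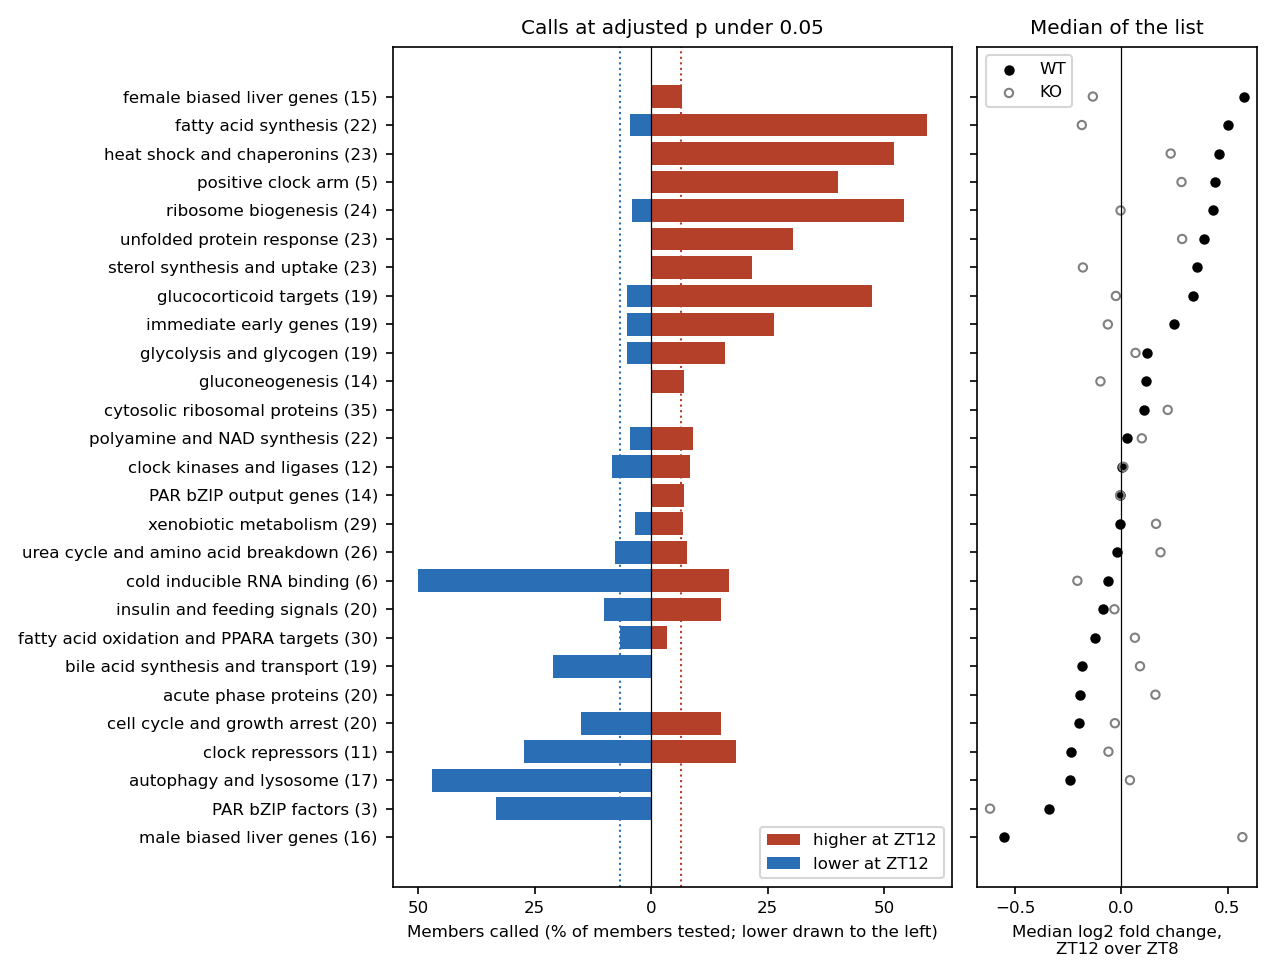
Left, share of the tested members of each of 27 pathway lists (member number in brackets) called higher (red, to the right) or lower (blue, to the left) at ZT12, with dotted lines at the 6.49% and 6.65% of all genes; right, the median log2 fold change of each list in WT (filled) and KO (open) liver. Fatty acid synthesis, ribosome biogenesis, heat shock and glucocorticoid lists reach farthest to the right, and the cold-inducible (6 members) and autophagy lists farthest to the left.

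The mitosis genes switched off were not alike in the ZT8 mice. Cdc20, an activator of the anaphase-promoting complex, had 1.8, 1.28, 1.6 and 1.06 CPM in the ZT12 mice, against 2.65, 11.4, 7.43 and 2.04 CPM in the ZT8 mice. Ccnb1, the cyclin B1 of mitotic entry, had 1.19, 1.14, 0.862 and 0.332 CPM in the ZT12 mice, against 1.31, 8.41, 4.07 and 1.34 CPM in the ZT8 mice. Hmmr, a spindle protein, had 1.25, 0.777, 0.831 and 0.574 CPM in the ZT12 mice, against 1.7, 8.6, 5.84 and 1.02 CPM in the ZT8 mice. In each of them ZT8 mice 12 and 13 were high, while mice 11 and 16 lay near or within the ZT12 range. Kif2c, Cdkn3, Kif20a and Plk1 had the same 2 mice on top. Calls of all 7 genes (adjusted p = 0.0192 to 0.0435) were lost without ZT8 mouse 12. The mice overlapped for Hmmr and Cdkn3. Cdc20 and Kif20a share ground with expressed neighbours, Elovl1 and Cdc23, which unstranded counts may not separate. Mki67, a general proliferation marker, averaged 4.61 CPM at ZT12 and 9.9 CPM at ZT8 and Top2a, a topoisomerase of dividing cells, averaged 2.98 CPM at ZT12 and 4.02 CPM at ZT8, neither called. In the cell cycle list as a whole 3 of 20 rose (Cdkn1a, Mcm2 and Pcna) and 3 fell (Ccnb1, Plk1 and Myc). The 3 lower members became 0 without any 1 of the 4 ZT12 mice, 1 without ZT8 mouse 12 or 13, and 0 with body weight as a covariate. Cdkn1a, the p21 arrest protein, had 3.39, 9.33, 17.4 and 12.4 CPM in the ZT12 mice, against 2.71, 2.91, 3.35 and 1.69 CPM in the ZT8 mice (log2 fold change 1.99 ± 0.43 SE, adjusted p = 0.00429), without overlap.

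**Figure D4:**
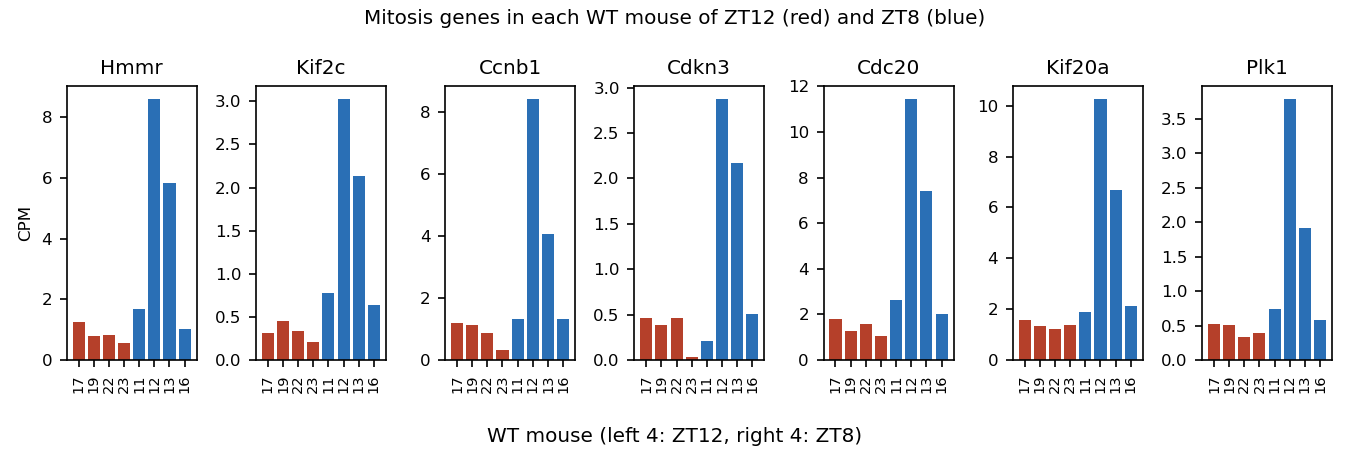
CPM of 7 mitosis genes in each WT mouse, with the 4 ZT12 mice (red) on the left and the 4 ZT8 mice (blue) on the right of each panel; bars start at 0 and each panel has its own scale. ZT8 mice 12 and 13 stand above the other mice in every panel.

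Other liver functions gave few calls. Xenobiotic metabolism had 2 of 29 higher and 1 lower, urea cycle and amino acid breakdown 2 of 26 in each direction, polyamine and NAD synthesis 2 of 22 higher and 1 lower, clock kinases and ligases 1 of 12 in each direction, and the PAR bZIP output genes 1 of 14 higher. These shares lie near the 13.1% called over all genes. Without each mouse in turn the higher members of xenobiotic metabolism numbered 1 to 5 and those of polyamine and NAD synthesis 2 to 4. Fmo5, a flavin monooxygenase of the PAR bZIP output list, was that gene, with 1077, 1407, 1904 and 1814 CPM in the ZT12 mice, against 650, 709, 724 and 886 CPM in the ZT8 mice (log2 fold change 1.06 ± 0.19 SE, adjusted p = 0.0012). None of 20 acute phase proteins was called. Of 16 male-biased liver genes none was called, though their median log2 fold change was -0.56, and of 15 female-biased genes 1 was called (median 0.58). Summed male-biased genes ranged from 6200 to 23400 CPM among the ZT12 mice and from 11500 to 19700 CPM among the ZT8 mice, so the mice of each time differed widely. Kbtbd8, an adaptor of a ubiquitin ligase, was among the 10 largest rises, with 4.41, 5.02, 5.05 and 5.53 CPM in the ZT12 mice, against 1.04, 0.938, 1.47 and 1.59 CPM in the ZT8 mice (log2 fold change 1.99 ± 0.32 SE, adjusted p = 0.000532).

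The same 4 h step was measured in KO liver, with mice from the same cage sets, apart from KO mouse 20 of ZT12, which lived alone. Arntl had 20.1, 12.7, 16.3 and 22.7 CPM in the KO mice of ZT12, against 17.8, 5.07, 8.2 and 19.7 CPM in the KO mice of ZT8. The floxed segment is a small part of the gene, so a count over the whole gene does not check its deletion. In KO liver 1 gene was higher at ZT12 (0.00674%) and 4 were lower (0.027%), together 0.0337% of 14836 tested, and no member of any list was called. Those 5, named after their values were seen, were Sult1e1 (higher) and Col27a1, Pou2f1, Npat and Phf20 (lower). At an unadjusted p under 0.05 the KO step held 2133 of the 14836 genes tested and the WT step of the same model 3653. The few adjusted calls thus do not show that the KO step was absent. Sult1e1, an estrogen sulfotransferase, had 2.33, 130.3, 4.09 and 11.5 CPM in the KO mice of ZT12, against 0.875, 1.67, 3.73 and 1.18 CPM in the KO mice of ZT8, so mouse 20 held nearly all of it. The count rested on single mice: it was 86 higher and 90 lower without KO mouse 24 of ZT12, and 0 and 0 without KO mouse 20 of ZT12. Spread between mice within groups (biological coefficient of variation) was 21.1% in KO and 15.8% in WT.

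Genes called in WT had smaller medians in KO, which is partly set by choosing them on the WT step. The 946 genes higher at ZT12 in WT had a median log2 fold change of 0.52 in WT and 0.08 in KO, and 631 of them had the same sign in KO. The 970 lower genes had medians of -0.48 in WT and -0.04 in KO, and 577 had the same sign. Over all genes tested the KO median was 0.0067. Same signs were not counted over all genes, so the 631 and 577 have no reference. The difference between the steps was itself called for 280 genes (1.89% of those tested), positive (WT minus KO) for 105 (0.708%) and negative for 175 (1.18%), and 251 of the 280 were called in the WT step. In 242 of the 280 the WT step was the larger, with a median size of 0.60 on the log2 scale in WT and 0.20 in KO. With total counts as the scaling the split was 177 positive and 77 negative, so the balance of directions turned, and without KO mouse 20 of ZT12 it was 59 and 85. Without each of the 16 mice in turn there were 59 to 188 positive and 85 to 254 negative genes.

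Of the 28 switched genes 6 had called differences between the steps: Ppp1r3b, Pnpla3, Thrsp, Trib3, Spon2 and Rfx4. That count is partly set by choosing the 28 on a large WT step. Over all genes tested 1.89% had a called difference. Ppp1r3b had 614, 604, 316 and 542 CPM in the KO mice of ZT12, against 352, 465, 349 and 452 CPM in the KO mice of ZT8. KO livers of both times were thus above the WT ZT8 level, and the steps differed by 2.51 ± 0.42 SE on the log2 scale, adjusted p = 0.0014. Trib3 had 4.35, 0.754, 2.93 and 3.25 CPM in the KO mice of ZT12, against 2.43, 2.33, 2.4 and 1.12 CPM in the KO mice of ZT8, all under the WT ZT8 mice, and the steps differed by -2.99 ± 0.59 SE on the log2 scale, adjusted p = 0.00354. Spon2 had 11.7, 29.8, 8.09 and 13.9 CPM in the KO mice of ZT12, against 6.38, 5.74, 8.85 and 12.1 CPM in the KO mice of ZT8, overlapping between the times (difference -3.07 ± 0.54 SE on the log2 scale, adjusted p = 0.00166). The differences of Ppp1r3b, Trib3 and Spon2 were called without each mouse in turn, while those of Pnpla3, Thrsp and Rfx4 were lost without at least 1 mouse (highest adjusted p 0.0888, 0.0613 and 0.0554). The difference of Pnpla3 was also not called in limma, either with cage as a random block (adjusted p = 0.0705) or without cage (adjusted p = 0.0751).

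Col27a1 (ENSMUSG00000045672, chromosome 4, 62875038 to 62996025), a fibrillar collagen gene, changed in opposite directions in the genotypes. It had 47.9, 52.9, 56.9 and 53.7 CPM in the ZT12 mice, against 11.7, 20.5, 14.2 and 19.6 CPM in the ZT8 mice in WT. It had 12.3, 9.63, 13.6 and 15.9 CPM in the KO mice of ZT12, against 40.4, 31.3, 52.1 and 25.7 CPM in the KO mice of ZT8. It rose in WT (log2 fold change 1.68 ± 0.24 SE, adjusted p = 0.000237) and fell in KO (log2 fold change -1.54 ± 0.31 SE, adjusted p = 0.0411), and the steps differed by 3.22 ± 0.44 SE on the log2 scale, adjusted p = 9.17e-05. Pou2f1, the transcription factor OCT1, was called lower in both genotypes (log2 fold change -0.53 in WT and -0.85 in KO). Its WT call was lost without any 1 of 6 mice (adjusted p up to 0.0757), and no gene was called lower in KO without mouse 20 or 21 of ZT12 or mouse 10 or 15 of ZT8.

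Further genes with a called difference were of other kinds. Eepd1, an endonuclease-like protein, had 26.9, 24.6, 22.2 and 19.8 CPM in the ZT12 mice, against 67.3, 76.6, 53.6 and 76.7 CPM in the ZT8 mice, and 43.9, 25, 34.5 and 35.6 CPM in the KO mice of ZT12, against 34.6, 29, 35.6 and 30.8 CPM in the KO mice of ZT8 (difference -1.65 ± 0.24 SE on the log2 scale, adjusted p = 0.00011). Hsd3b7 had 582, 792, 626 and 645 CPM in the KO mice of ZT12, against 439, 423, 480.2 and 590.5 CPM in the KO mice of ZT8 (difference -1.36 ± 0.19 SE on the log2 scale, adjusted p = 0.00011). In WT every ZT12 mouse was below every ZT8 mouse for both genes, and in KO the times overlapped for both. Fkbp5 had 53.3, 66.7, 81 and 56.7 CPM in the KO mice of ZT12, against 77.5, 85.2, 92.2 and 58.9 CPM in the KO mice of ZT8 (difference 1.58 ± 0.32 SE on the log2 scale, adjusted p = 0.00482), and Nampt had 113, 89.7, 125 and 99.2 CPM in the KO mice of ZT12, against 165, 175, 176 and 119 CPM in the KO mice of ZT8 (difference 1.23 ± 0.23 SE on the log2 scale, adjusted p = 0.00194). Tbcel, Ubxn1, Mterfd2, Stom and Amdhd1 had negative differences and Fgf1 a positive one, between -1.27 and 0.94 on the log2 scale. The heat shock list had a median of 0.46 in WT and 0.23 in KO, with 2 called differences (Hsph1 and Hsp90aa1), each lost without at least 1 mouse (adjusted p up to 0.0777 and 0.0819). Fatty acid synthesis had medians of 0.50 in WT and -0.19 in KO with 2 called differences, and the unfolded protein response had 0.39 in WT and 0.29 in KO with none. For Nr1d1 the difference had an adjusted p of 0.0722, for Arntl it was 0.186 and for Cry1 0.2, so their steps were not shown to differ between the genotypes.

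**Figure D5:**
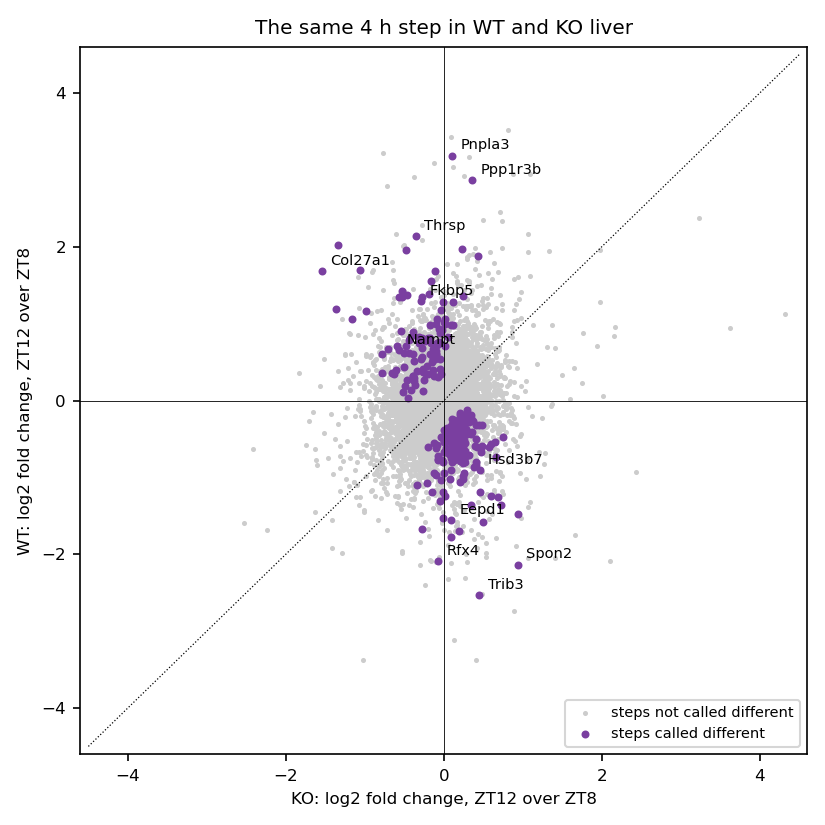
Log2 fold change of ZT12 over ZT8 in WT (vertical axis) and in KO (horizontal axis) for each of the genes tested in both models; purple points are genes whose steps were called different, and the dotted line marks equal steps. Of the 280 genes called different, 242 had the larger step in WT, with a median size of 0.60 in WT and 0.20 in KO. Some, such as Col27a1 and Spon2, lie away from 0 on the horizontal axis. Outside the axes lie 2 genes.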

How the data were processed

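Libraries of poly-A liver RNA from 48 mice were unstranded, per the labels' protocols. Per the submitters' processing notes, CASAVA and STAR 2.4.0f1 were used with genome build mm9; the gene models and the handling of reads with several matches are not given in the sources used here. The authors deposited whole-number read counts for 23732 genes. Totals of all 48 libraries lay within 1.4% of each other, so the libraries had been brought to a common depth by a step that is not described, and the depth sequenced is unknown. Depth does not limit the abundant genes, while values under about 1 CPM carry counting error.

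The test was edgeR's quasi-likelihood test (edgeR 4.0.16, R 4.3.3, filterByExpr with a minimum count of 10, TMM factors). The WT step was fitted on 24 WT libraries with 6 group means (18 residual degrees of freedom). The KO step and the difference between the steps were fitted on all 48 libraries with 12 group means (36 residual degrees of freedom). All genes of a fit entered its Benjamini-Hochberg adjustment. SE was derived from the F statistic. The kept genes held 99.97% of counts. Replicates are separate mice, and the variance between the counts of any pair in a group was 36.1 to 92 times that of counting.

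In data simulated from these libraries, 200 genes were changed 2-fold. The WT step recovered 79% of them, the KO step 73% and the difference between steps 65.5%, and 4.82%, 3.31% and 4.38% of calls were false. The simulations of the KO step and of the difference gave both genotypes the same spread per gene. Measured spread at these times was 21.1% in KO and 15.8% in WT, so recovery at the KO spread was not measured. Changes smaller than 2-fold were not simulated. The alternatives used limma 3.58.1 and DESeq2 1.42.0 beside edgeR.

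Named genes are the clock lists and switched genes that crossed 1 CPM in all mice. Added to them are the 10 largest rises and 10 largest falls among called genes of at least 5 CPM without overlap. Also named are up to 4 called members of each pathway list and the 10 smallest p values of the difference between steps. Genes called alike in both genotypes complete them. Predicted genes were skipped, except Gm129. Some named genes are counted in totals but are not reported here. Other list members and genes called in KO were named after their values were seen. The gene lists and the genes examined were chosen with earlier results of these data known. Promoter sequences are from RefSeq (GRCm38.p6), and 97 of the 117 named genes matched that table.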

Additional observations from a re-analysis of the deposited data

Results flagged for a closer look

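In groups of 4 mice, 1 mouse stood far from the other 3 for 9 of 222 groups of named genes, and chance flags about 1 in 20 groups. ZT12 mouse 23 was high for Cry2 (57.3 CPM), Irs1 (21.9 CPM) and Npat (9.36 CPM) and low for Srm (44.6 CPM), and ZT12 mouse 17 was low for Nbr1 (198 CPM). ZT8 mouse 16 was high for Tef (363 CPM) and Fosl2 (14.4 CPM) and low for Bhlhe41 (11.8 CPM), and ZT8 mouse 13 was low for Wipi1 (28.6 CPM).

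The WT step and the KO step were called different for 31 named genes. Of these, 19 were called without each of the 16 mice in turn. The others, whose call was lost without at least 1 mouse, were Pnpla3, Rfx4, Thrsp, Tfrc, Fmo5, Abcb11, Fosl2, Hsph1, Hsp90aa1, Tsr1, Asl and Phf20 (highest adjusted p 0.125, for Asl). Positive differences (WT minus KO, log2 scale) were 3.22 for Col27a1, 3.08 for Pnpla3, 2.51 for Ppp1r3b, 2.49 for Thrsp, 1.75 for Tfrc, 1.58 for Fkbp5, 1.58 for Rrp12, 1.44 for Hsph1, 1.23 for Nampt, 1.11 for Hsp90aa1, 1.1 for Tsr1, 1.06 for Fosl2, 1.05 for Fmo5, 0.935 for Fgf1, 0.749 for Asl and 0.482 for Phf20. Negative differences were -3.07 for Spon2, -2.99 for Trib3, -2.02 for Rfx4, -1.65 for Eepd1, -1.36 for Hsd3b7, -1.27 for Tbcel, -1.15 for Ubxn1, -1.02 for Amdhd1, -1 for Gabarapl1, -0.993 for Plin2, -0.992 for Cbs, -0.803 for Mterfd2, -0.684 for Stom, -0.672 for Abcb11 and -0.622 for Amacr.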

How the results depend on the processing

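Of the 103 named genes called in the WT step, 79 were called without each of the 8 mice in turn and 76 under all 16 alternatives. Many of them were named for a small p or a large change, which favours keeping a call. Of all 1916 called genes, 1216 stayed called without ZT8 mouse 12 and 1502 without ZT12 mouse 17, the lowest and highest such counts. How many of the 1916 stayed called without each mouse in turn was not counted. Without each mouse in turn, 551 to 814 genes were higher and 670 to 850 lower, 12 to 20 were switched on and 5 to 20 switched off. A 2-fold limit gave 127 switched on and 82 switched off, and a minimum of 5 CPM gave 8 switched off. The KO step had 0 genes higher and 0 lower with the 24 KO libraries alone and 24 lower with total counts; without each mouse in turn it had 0 to 86 higher and 0 to 90 lower. The difference between the steps was positive for 177 and negative for 77 genes with total counts, and 38 and 60 with the 16 libraries alone; without each mouse in turn the ranges were 59 to 188 and 85 to 254. Without KO mice 20 and 21 of ZT12, an alternative added after seeing the data, the KO step had 0 lower genes and the difference 27 positive and 49 negative. The WT value of Phf20, not called, ranged from -0.0339 to 0.139 on the log2 scale without each mouse in turn, below 0 without ZT12 mouse 22 or ZT8 mouse 13. The cause of these changes was not tested. Replicate numbers pair no samples, since none occurs in more than 1 group, but WT and KO mice shared 5 cages at these times. With cage as a random block in limma, chosen after seeing the data for the 48 libraries, the correlation within cages was -0.0162 in the WT step and 0.0806 over the 48 libraries. The difference between the steps was then called for 299 genes, 265 of them among the 280, against 272 in limma without cage. Of the 31 named genes 30 kept their call with the block, and 30 kept it in limma without cage. The KO step had 0 genes higher and 0 lower with the block, and 0 higher and 1 lower without it.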
